A study of Homo sapiens with 6 samples.

Results

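The 84 genes that encode the protein components of the cytosolic ribosome were described in SW480 cells with and without depletion of MORC2. They were chosen by symbol alone from the 56303 genes of the count table: RPL or RPS with a number, at most one of the letters A, X or L and an optional final 1, plus RPLP0, RPLP1, RPLP2 and RPSA. The pattern found 85 names, and 1 of them, RPS10L, was left out because RefSeq annotates it as a pseudogene. The 84 members comprised 31 proteins of the small (40S) subunit, 46 of the large (60S) subunit and 7 paralogs, which are related copies of a standard ribosomal protein gene (RPL3L, RPL7L1, RPL10L, RPL22L1, RPL26L1, RPL39L and RPS27L). FAU and RPL36AL also encode ribosomal proteins but do not follow the naming pattern, so they were read beside the members and not among them.

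Ribosomal proteins are made in near-equal numbers, because each mature ribosome holds one copy of nearly every one of them. Their mRNAs are short, very abundant and mostly begin with a 5′ terminal oligopyrimidine (TOP) tract, a C followed by an unbroken run of C and T. Through the TOP tract their translation is adjusted together by the kinase mTOR and the RNA-binding protein LARP1. In cancer cells the rate of ribosome production is closely tied to growth, with MYC as one of its best known activators.

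SW480 is an epithelial line from a human colorectal adenocarcinoma. The control group, shCtrl, was infected with a lentivirus carrying a nonsilencing short hairpin RNA, and the other group, shMORC2, with a lentivirus carrying a hairpin against MORC2, an ATPase of the nucleus. According to the methods of the study, stable clonal lines were then selected with puromycin. Both groups therefore carried an integrated vector and had passed selection, and the effect of 1 hairpin cannot be told apart from that of the clone. Polyadenylated RNA of 3 libraries per group was sequenced. The labels do not say what the 3 libraries of a group share, so p-values measure the spread between these 6 libraries.

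The libraries held from 42092664 to 43434425 counts. Levels are given in CPM, counts scaled to a library of 1000000 with TMM-scaled library sizes. MORC2 itself averaged 47.1 ± 1.47 CPM in shCtrl against 30.5 ± 4.07 CPM in shMORC2 (SD, n = 3 each), or 64.7% of the control level (log2 fold change -0.63, SE 0.10, edgeR adjusted p 0.000216). Among 8 markers of colon epithelium, all 8 were detected, with KRT8 at 15380 CPM and EPCAM at 478 CPM in shCtrl, and 1 was called higher (CDX2) and 1 lower (CEACAM5) in shMORC2. Of the markers of other cells, the blood cell genes PTPRC and CD3E and the fibroblast gene DCN averaged under 0.1 CPM in both groups. COL1A2, at 0.172 CPM in shCtrl, also failed the filter on low counts. PECAM1, COL1A1 and ALB passed it, at 15.03, 9.32 and 2.35 CPM in shCtrl, and ALB was called lower.

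The starts of the genes carry the feature for which ribosomal protein mRNAs are known, and they are shown first for the members whose levels differed most between the groups. RefSeq promoter windows (GRCh38.p14, 250 bases before and 50 bases from the start base on) were given for 67 of the 84 members. In each line below, 15 bases before and 15 from the start base on are printed 5′ to 3′, and capitals mark the unbroken run of C and T that begins with a C at the start base. Where a gene has more than 1 listed start, the one with the longest run was taken, for members and for all other genes alike. The first 7 are the members with the highest fold changes that have such a window.
RPLP1, chr15:69452803-69452832, plus strand: gtataggcgcgagagCCCCTTTCCTCagct
RPS13, chr11:17077653-17077682, minus strand: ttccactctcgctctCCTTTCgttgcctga
RPL39, chrX:119791616-119791645, minus strand: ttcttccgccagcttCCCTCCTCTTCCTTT
RPL36, chr19:5690280-5690309, plus strand: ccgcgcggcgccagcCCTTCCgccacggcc
RPL37A, chr2:216498829-216498858, plus strand: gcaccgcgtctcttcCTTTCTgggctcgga
RPL27, chr17:42998404-42998433, plus strand: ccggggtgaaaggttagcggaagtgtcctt
RPL29, chr3:51995881-51995910, minus strand: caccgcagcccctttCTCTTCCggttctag
Of these 7, all but RPL27 start with a run of at least 5, and the run of RPL39 goes on past the 15 bases shown, to 19. The next 7 are the members with the lowest fold changes that have a window.
RPL22L1, chr3:170870181-170870210, minus strand: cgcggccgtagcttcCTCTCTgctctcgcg
RPL14, chr3:40457324-40457353, plus strand: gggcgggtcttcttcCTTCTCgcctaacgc
RPS28, chr19:8321481-8321510, plus strand: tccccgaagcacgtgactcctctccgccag
RPS15, chr19:1438381-1438410, plus strand: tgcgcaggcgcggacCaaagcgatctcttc
RPL7L1, chr6:42879601-42879630, plus strand: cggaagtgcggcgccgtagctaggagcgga
RPS10, chr6:34426055-34426084, minus strand: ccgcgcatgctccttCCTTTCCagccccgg
RPSA, chr3:39406705-39406734, plus strand: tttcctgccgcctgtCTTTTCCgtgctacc
Here RPL22L1, RPL14, RPS10 and RPSA hold a run of at least 5, whereas RPS28, RPS15 and RPL7L1 do not. The run was read from the listed start base alone. One that begins just after that base, as in the line of RPS28, was not counted. The run is thus found at both ends of the range of change.

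Over all windows, 47 of 67 members (70.1%) began with a run of at least 5, against 5.14% of the 27305 genes in the promoter table. The run has no reverse strand counterpart and was read only in the direction of the gene. A further 4 short motifs were searched on both strands of the 300 bases. CCGGAA, the core of sites bound by ETS factors such as GABPA, was found in 58.2% of the members against 20.1% of all genes. AAGATGG, which resembles the site bound by YY1, was found in 13.4% against 7.11%. The E-box that MYC binds, CACGTG, was found in 7.46% against 8.78%. The core of the TATA box, TATAAA, was found in 10.4% against 14.0%. None of these 4 motifs holds another. A match is a match of letters and says nothing about binding.

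After depletion of MORC2 the ribosomal protein genes moved in both directions. Of the 83 members that passed the filter on low counts, 27 were called higher (32.5%) and 12 lower (14.5%) in edgeR's quasi-likelihood test at an adjusted p under 0.05, and 44 were not called. Over all 21005 genes tested, 19.9% were called higher and 19.6% lower, and the difference of the members from these shares was not tested. No member changed by 1 or more on the log2 scale, whereas 7.75% of all genes tested did so with a call. The median log2 fold change of the members was 0.09 and that of all genes tested was -0.01, with a range over the members from -0.47 (RPL22L1) to 0.82 (RPLP1). The 3 shMORC2 values lay above all 3 shCtrl values in 30 members and below them in 13, where 25.1% of all genes tested lay above and 25.1% below.

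The summed share of the members differed less between the groups than within them. They took 5.72%, 6.16% and 6.26% of the counts of shCtrl replicates 1, 2 and 3 and 5.97%, 6.38% and 6.29% of those of shMORC2 replicates 1, 2 and 3. The groups overlapped, and the difference of 0.167 percentage points was smaller than the spread within either group (SD 0.288 and 0.214, n = 3 each). As a share of summed RPKM the difference was -0.0379 percentage points. In each group replicate 1 had the lowest share. Within the sum there was a shift: the 27 members called higher went from 1.58 ± 0.0682% to 2.02 ± 0.0647% of the counts and the 12 called lower from 0.863 ± 0.0504% to 0.678 ± 0.0277% (SD, n = 3 each), which describes the calls and adds no test. In these bulk samples fewer cells and less RNA per cell cannot be told apart.

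**Figure D1:**
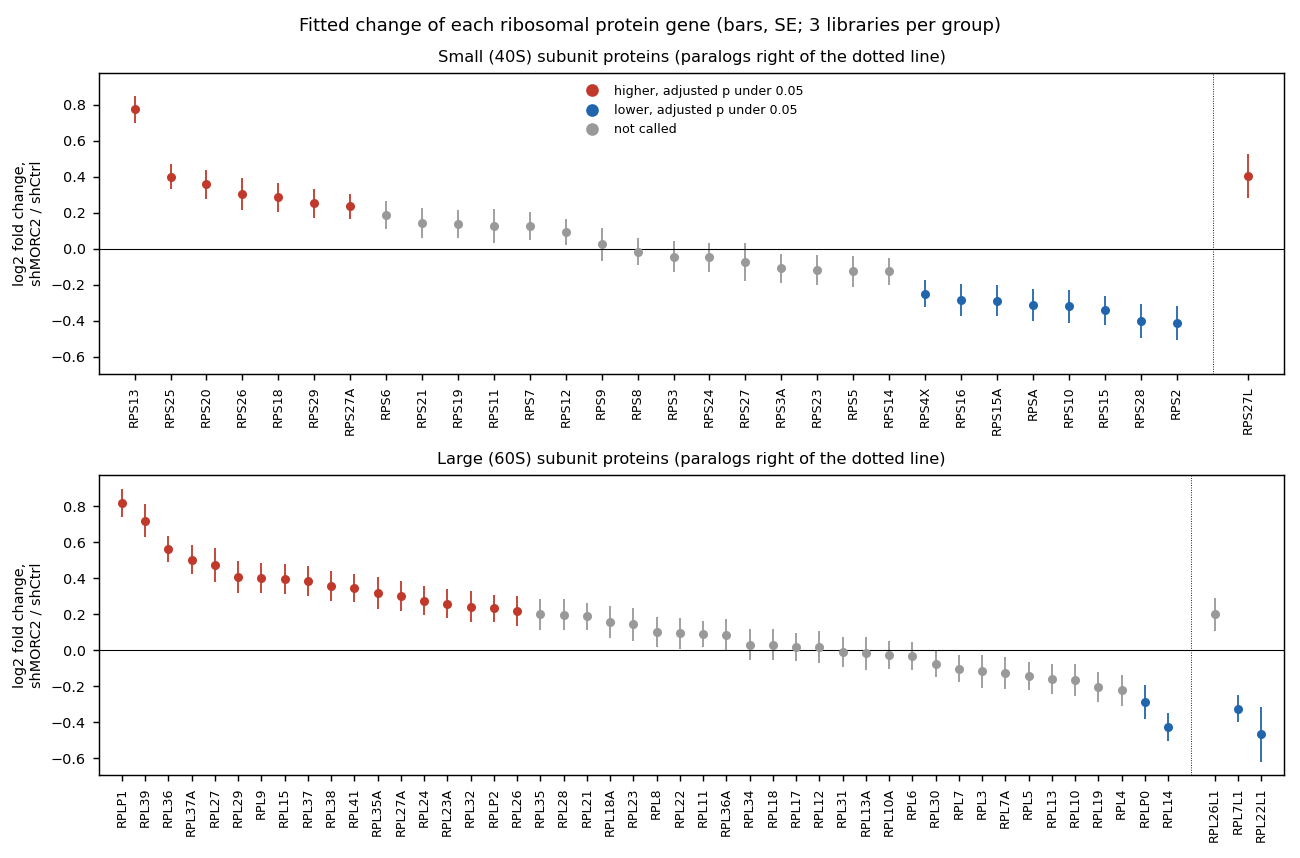
Fitted log2 fold change of shMORC2 over shCtrl for 80 of the 83 tested ribosomal protein genes, sorted within the 40S and 60S subunits, with paralogs on the right. Bars are SE from 3 libraries per group and colours give the edgeR call at an adjusted p under 0.05. The genes not drawn include RPL3L and RPL39L, at 3 to 24 counts per library. The 60S panel has 18 red points and 2 blue ones among its standard proteins, the 40S panel 7 and 8.

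As fitted, the calls in the 60S subunit were mostly increases, and those in the 40S subunit were evenly split. Of the 46 proteins of the 60S subunit, 18 were called higher and 2 lower, with a median log2 fold change of 0.12. Of the 31 proteins of the 40S subunit, 8 were called higher and 8 lower, with a median of -0.02. Over all genes tested, 19.9% were called higher and 19.6% lower. The 40S proteins accordingly took a smaller part of the counts of all members in shMORC2: 31.04%, 30.7% and 30.8% in replicates 1, 2 and 3, against 31.7%, 31.9% and 31.9% in shCtrl. The groups did not overlap in this share, which was 31.8 ± 0.139% in shCtrl and 30.9 ± 0.165% in shMORC2 (SD, n = 3 each). With a block for the replicate number the counts of calls were 23 higher and 8 lower for 60S and 10 higher and 8 lower for 40S. That fit called 24.4% of all genes tested higher and 24.5% lower. With the trend with coding length removed as well, as described further on, 60S had 8 higher and 19 lower calls. The 40S subunit then had 2 higher and 19 lower. Of 13392 protein-coding genes, 27.3% were called higher and 27.7% lower in that fit.

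RPLP1 had the largest increase among the members. It encodes one of the acidic proteins of the ribosomal stalk, the flexible arm of the large subunit that recruits elongation factors. Its level was 588, 635 and 655 CPM in shCtrl replicates 1 to 3 and 1048, 1095 and 1173 CPM in shMORC2 replicates 1 to 3, so the groups lay far apart. The change on the log2 scale was 0.82 (SE 0.08, adjusted p 5.67e-06 in edgeR), or 177% of the control level. RPLP2, its partner in the stalk dimer, was called higher by a smaller amount, from 877 ± 44.3 to 1031 ± 49.9 CPM (SD, n = 3 each, log2 fold change 0.23, SE 0.08, edgeR adjusted p 0.0278). RPLP0, the protein that anchors both dimers to the ribosome, was called lower, from 1569 ± 182 to 1287 ± 94.9 CPM (log2 fold change -0.29, SE 0.10, edgeR adjusted p 0.0289).

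The 3 stalk genes thus changed their proportions to each other. Ratios within a library do not depend on how libraries are scaled, and levels of different genes were compared per base of coding sequence. Untranslated exons also take counts, so the size of a ratio depends on this scale, but its relative change between the groups does not. RPLP1 stood at 71.8%, 71.6% and 72.6% of RPLP2 in shCtrl replicates 1, 2 and 3 and at 108.6%, 104.3% and 111.6% in shMORC2. Against RPLP0, it went from 111.5 ± 7.07% to 239 ± 11.1%, and RPLP2 went from 155.0 ± 10.7% to 221 ± 5.86% (SD, n = 3 each). In none of these 3 ratios did the groups overlap. RPLP0 has a longer coding sequence (951 bases) than RPLP1 and RPLP2 (342 and 345 bases). With the trend with coding length removed and a block for the replicate number, as described further on, the log2 fold changes were 0.52 for RPLP1, -0.06 for RPLP2 and -0.32 for RPLP0, so RPLP2 and RPLP0 lay closer together. RPLP1 and RPLP2 both start with a TOP-like run and so does RPLP0, as their starts show.
RPLP0, chr12:120201097-120201126, minus strand: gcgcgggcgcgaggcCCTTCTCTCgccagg
RPLP2, chr11:809952-809981, plus strand: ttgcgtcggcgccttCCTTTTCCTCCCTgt
RPLP0 has a pseudogene, RPLP0P6, with 5072 to 7169 counts per library, and reads can be split between the copies. With each gene summed with its pseudogenes the log2 fold change of RPLP0 was -0.28.

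RPS13, a 40S protein that binds ribosomal RNA directly, followed. It stood at 111, 118 and 129 CPM in shCtrl and at 197, 206 and 208 CPM in shMORC2 (replicates 1, 2 and 3), a change of 0.77 on the log2 scale (SE 0.08, adjusted p 8.13e-06 in edgeR). Exons of PIK3C2A overlap those of RPS13 on the same strand. RPL39, the very short protein that lines the exit tunnel of the nascent chain, stood at 169.5, 169.7 and 192 CPM in shCtrl and at 262, 329 and 285 CPM in shMORC2. Its change on the log2 scale was 0.72 (SE 0.09, adjusted p 5.60e-05 in edgeR). The groups of both genes lay well apart, and both lie above every other 40S or 60S protein except RPLP1.

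A further 4 members had log2 fold changes from 0.41 to 0.56. RPL36 stood at 214 to 226 CPM in shCtrl and at 306 to 342 CPM in shMORC2 (log2 fold change 0.56, SE 0.07, edgeR adjusted p 6.60e-05). RPL37A, which binds zinc, stood at 681 to 785 CPM against 979 to 1090 CPM (0.50), and RPL27 at 815 to 966 CPM against 1077 to 1305 CPM (0.48). RPL29 stood at 250.1 to 306 CPM against 334.5 to 383 CPM (0.41). None of the 4 overlapped between the groups. HSD11B1L shares exon sequence with RPL36 on the same strand, and RPL36 and RPL37A each have an antisense neighbour with overlapping exons.

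A further 19 members called higher had log2 fold changes from 0.22 (RPL26) to 0.40 (RPS27L), and 12 of them were called with an adjusted p above 0.01. They include RPS25, which some viral RNAs need to start translation (log2 fold change 0.40, SE 0.07), RPS26, which touches mRNA near the exit of its channel (0.31, SE 0.09), and RPS27A, which is made as a fusion with ubiquitin (0.23, SE 0.07). RPL41, which encodes the shortest of all ribosomal proteins, rose from 288 ± 16.1 to 366 ± 23.8 CPM (SD, n = 3 each, log2 fold change 0.35), but it was called lower, at -0.36, once the trend with coding length described further on was removed. RPL15 and RPL9, at 0.39 and 0.40, are the members called higher whose pseudogenes took most counts, 31.7% and 21.5% of gene and pseudogenes together. Summed with those pseudogenes they stood at 0.37 and 0.49.

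**Figure D2:**
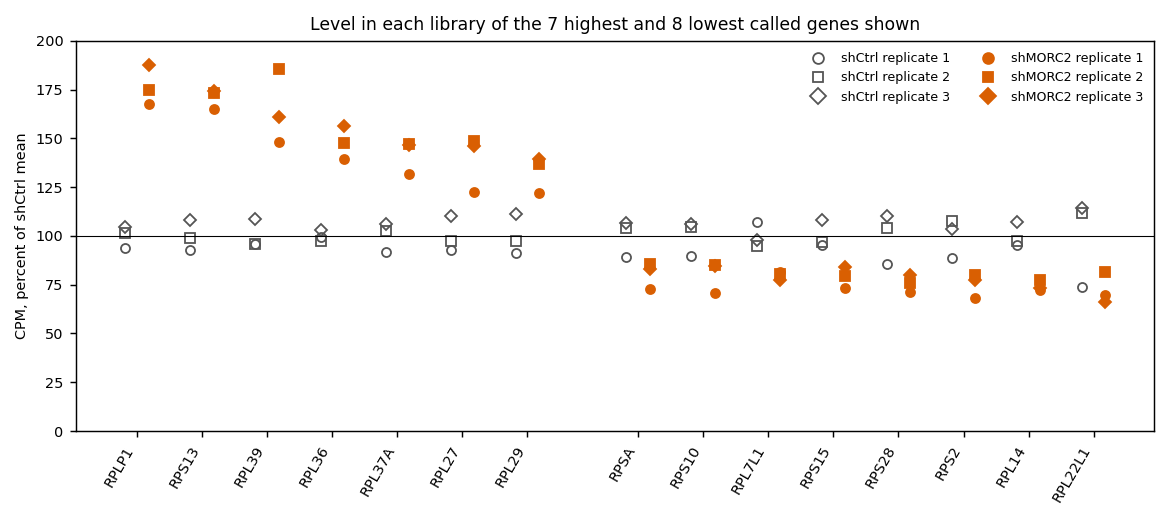
Level of 7 of the 8 members with the highest and of the 8 with the lowest fold changes among those called, in each of the 6 libraries, as percent of the shCtrl mean of the gene (CPM, linear axis from 0). Open grey symbols are shCtrl and filled orange symbols shMORC2, and the symbol shape gives the replicate number. RPL22L1 is the gene of the 15 in which a shCtrl library, replicate 1 at 10.5 CPM, lies within the shMORC2 range.

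At the other end, RPL14 and RPS2 were lowest among the standard proteins. RPL14, a 60S protein, stood at 1189, 1216 and 1334 CPM in shCtrl and at 899, 968 and 913 CPM in shMORC2, a change of -0.43 on the log2 scale (SE 0.08, adjusted p 0.000795 in edgeR). Its pseudogene RPL14P1 went the same way, from 7046 to 7922 counts in shCtrl to 4643 to 5424 counts in shMORC2. RPS2, which lies at the entry of the mRNA channel, stood at 1863, 2271 and 2181 CPM and at 1436, 1681 and 1629 CPM, a change of -0.41 on the log2 scale (SE 0.09, adjusted p 0.00368 in edgeR). Neither overlapped between the groups.

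More 40S proteins followed. RPS28 stood at 58.2 to 74.7 CPM in shCtrl and 48.3 to 54.2 CPM in shMORC2 (log2 fold change -0.40), RPS15, whose tail reaches toward the decoding site, at 519 to 589 CPM against 399.9 to 457 CPM (-0.34) and RPS10 at 377 to 447 CPM against 299 to 358 CPM (-0.32). RPSA, also known as the laminin receptor, stood at 724 to 864 CPM against 591 to 693 CPM (-0.31). SE of these 4 were 0.08 to 0.10 and their edgeR adjusted p ran from 0.00471 to 0.0144. None overlapped between the groups, but replicate 1 of shCtrl lay closest to shMORC2 in each. The call of RPSA depended on how reads were split with a pseudogene: RPSAP58 rose from 7079 to 7499 counts in shCtrl to 10729 to 10980 counts in shMORC2, and with its pseudogenes added RPSA stood at -0.10 with an edgeR adjusted p of 0.364. RPS28 has exons of 3 antisense genes over its own, and RPS10 shares exons with the readthrough gene RPS10-NUDT3. RPS15A, RPS16 and RPS4X, at -0.29, -0.28 and -0.25, and RPLP0 complete the 10 standard proteins called lower.

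How far single libraries bear on these calls was read from 6 fits that each left 1 library out. In all 6, 15 of the 27 higher calls and 5 of the 12 lower calls remained (RPS2, RPS15, RPS28, RPL14 and RPL7L1), and 0 of the 39 changed sign. Leaving out shMORC2 replicate 2 or 3 took the number called higher to 15 and 17, and leaving out shCtrl replicate 2 or 3 took the number called lower to 6 and 5. With a block for the replicate number, 35 members were called higher and 18 lower (24.4% and 24.5% of all genes tested), all 39 calls among them.

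Length set the members apart from most other genes, and their changes followed it. Coding length, taken from the canonical transcript of GENCODE v44, ran from 75 bases (RPL41) to 1281 bases (RPL4). Of 11 members of up to 300 bases, 7 were called higher (63.6%) and 1 lower, against 55.0% and 6.11% of the other protein-coding genes of that length. Of 40 members above 300 and up to 500 bases, 18 were called higher (45.0%) and 5 lower, against 40.7% and 9.65% of the others. In these 2 ranges the shares of the members were near those of the others. Of 19 members above 500 and up to 750 bases, 2 were called higher and 1 lower, against 33.2% and 13.8%. Of 10 members above 750 and up to 1000 bases, 5 were called lower and the other 5 were not called, against 24.7% higher and 18.1% lower. Across the 83 members the Spearman correlation of log2 fold change with coding length was -0.49, with -0.71 over the 46 60S proteins and -0.31 over the 31 40S proteins. Genes are not replicates, and all these points come from the same 6 libraries.

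The changes of other protein-coding genes also fell with length, and the difference between their slope and that of the members was not tested. In the same 4 ranges of coding length, their median log2 fold changes were 0.39, 0.22, 0.13 and 0.04 over 262, 767, 1460 and 1527 genes, and in the range above 2500 bases the median was -0.12 over 2805 genes. The members had medians of 0.35, 0.20, -0.02 and -0.20 in the 4 ranges. Over 13309 protein-coding genes without the members the Spearman correlation with coding length was -0.21. The members of up to 500 bases thus stood near other genes of their length, and those above 500 bases stood below them. The part of library preparation, fragment size and RNA quality in this slope was not tested.

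When the trend with coding length was taken out of each library over all protein-coding genes, with a block for the replicate number kept, the split of the calls turned. Then 10 members were called higher and 40 lower, with a median log2 fold change of -0.12, while 27.3% and 27.7% of 13392 protein-coding genes were called higher and lower. All 12 lower calls held. Of the 27 higher calls 10 held (among them RPS13, RPLP1, RPL27, RPL36, RPL37A, RPL15, RPL29, RPL9 and RPL39), and 6 of the others had a log2 fold change below 0, of which RPL41 (-0.36) and RPS29 (-0.24) were then called lower. RPS13 then stood at 0.56, RPLP1 at 0.52 and RPL39 at 0.20, RPLP2 at -0.06 and RPS28 at -0.83. The 40S median was -0.18 with 19 members called lower and the 60S median -0.08, also with 19 called lower. Directions of the members as a whole therefore depend on whether a change is read against all genes or against genes of like length. They also depend on the length used. The median of the members turned below 0 with the coding length and canonical transcript length trends, both added after seeing the data. With the trend of exon length, which was planned, it did not turn, and 21 members were called lower. The 10 higher calls that held, RPLP1 and RPS13 among them, and the 12 lower calls kept their direction. All 12 lower calls moved further down, the way this removal moves members of their length. That they held is thus no test of them.

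**Figure D3:**
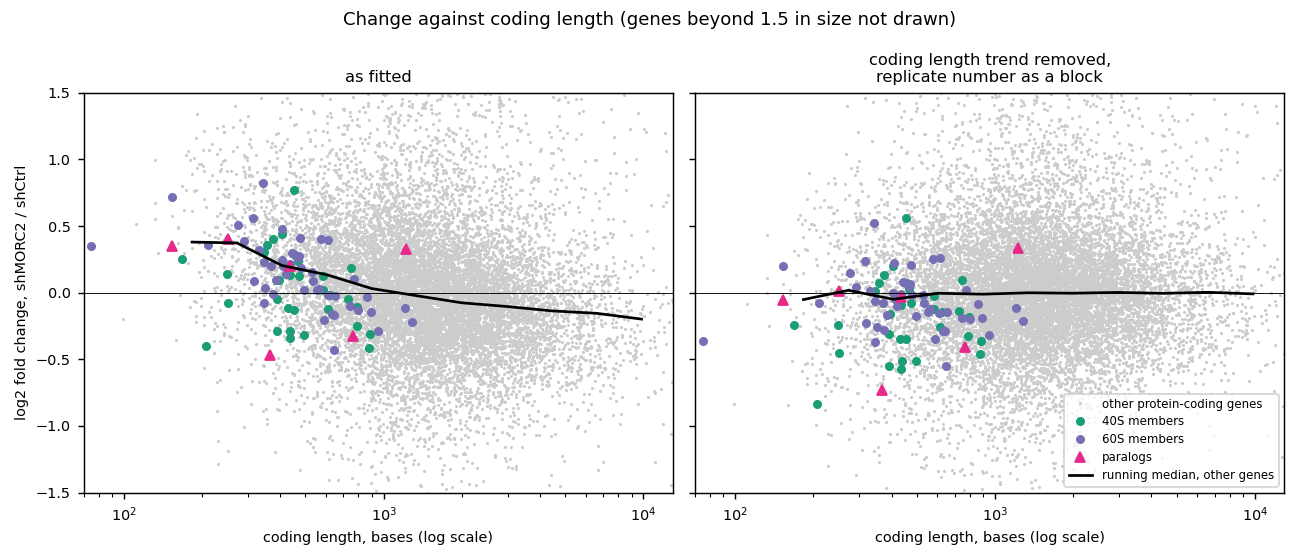
Log2 fold change of shMORC2 over shCtrl against coding length (log axis, in bases) for protein-coding genes in grey and the ribosomal protein genes in colour, as fitted on the left and with the coding length trend of each library removed on the right. The black line is the running median of the other genes. It falls with length on the left, where by their medians members of up to 500 bases lie near it and longer ones below it. On the right it is flat, and most members lie below 0.

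In their levels the members ranged widely, although each protein enters the ribosome about once. Per coding kilobase, RPL23A had the highest level in shCtrl, at 6023 CPM, followed by RPL13A at 4727 and RPL41 at 3838 CPM. This scale counts reads of untranslated exons but divides by coding length alone. It raises genes such as RPL41, with 75 coding bases in a canonical transcript of 676 bases. By mean RPKM, scaled by summed exon length, RPL41 stood at 300 and RPL5 at 839. RPL23A and RPL13A also led by mean RPKM together with RPL5. Among the standard proteins RPS13 was lowest, at 263 CPM per coding kilobase in shCtrl and 449 in shMORC2. RPL23A had pseudogene counts of 10.5% of gene and pseudogenes together. It was called higher, from 2819 ± 214 to 3373 ± 119 CPM (SD, n = 3 each, log2 fold change 0.26, SE 0.08, edgeR adjusted p 0.0237). RPL13A stood at 2879 ± 302 and 2845 ± 175 CPM, so its groups overlapped. Reads on introns or on the small nucleolar RNAs inside these genes were not told apart from mRNA reads.

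The paralogs were all far below their parent genes. RPL7L1, which acts in the assembly of the 60S subunit, stood highest, at 126 ± 7.89 CPM in shCtrl against 101 ± 2.87 CPM in shMORC2 (SD, n = 3 each, log2 fold change -0.33, SE 0.07, edgeR adjusted p 0.00388). RPL22L1, which is known to take the place of RPL22 in ribosomes, had 10.5, 15.9 and 16.2 CPM in shCtrl and 9.92, 11.6 and 9.37 CPM in shMORC2. Its change on the log2 scale was -0.47 (SE 0.15, adjusted p 0.0270 in edgeR), the lowest of all members, but its groups overlapped. RPS27L rose from 12.9 ± 1.1 to 17.0 ± 2.64 CPM (log2 fold change 0.40, SE 0.12, edgeR adjusted p 0.0175). RPL26L1 stood at 28.8 ± 1.46 and 33.03 ± 3.49 CPM and was not called, though with a block for the replicate number it was called higher (log2 fold change 0.20, edgeR adjusted p 0.0298).

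The remaining 3 paralogs are known mainly from other tissues. RPL3L, a protein of heart and skeletal muscle, had 13 to 24 counts per library and RPL39L, best known from the testis, 3 to 22. RPL10L, also a testis gene, had 0 counts in each of the 6 libraries, where the limit that a count of 0 allows is 3 counts per library. Changes of RPL3L and RPL39L were not detectable at this depth, with SE of 0.37 and 0.56 on the log2 scale.

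Each paralog was also set against its parent gene within each library. Per coding base RPL22L1 stood at 1.06%, 1.48% and 1.42% of RPL22 in shCtrl and at 0.935%, 0.928% and 0.835% in shMORC2 (replicates 1, 2 and 3). RPL22 itself, at 1123 ± 83.7 and 1199 ± 99.9 CPM, was not called (log2 fold change 0.09, SE 0.09). RPL7L1 went from 9.55 ± 0.912% to 8.17 ± 0.262% of RPL7 and RPS27L from 4.70 ± 0.624% to 6.46 ± 0.422% of RPS27 (SD, n = 3 each). In these 3 pairs the groups did not overlap, which gives the smallest p this design allows, 0.1 in an exact two-sided permutation test and 0.2 after Benjamini-Hochberg adjustment over the 6 pairs. RPL26L1 stood at 1.84 ± 0.109% and 1.81 ± 0.111% of RPL26 (exact two-sided permutation p 0.7), with p of 0.2 and 0.8 for RPL3L and RPL39L by the same exact test. The starts of 2 pairs differ in the TOP-like run, which RPS27 and RPL26 hold and RPS27L and RPL26L1 lack. RPL22, in the lines that follow, and RPL22L1, printed earlier, both hold it.
RPL22, chr1:6199581-6199610, minus strand: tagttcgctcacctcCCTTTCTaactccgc
RPS27, chr1:153990747-153990776, plus strand: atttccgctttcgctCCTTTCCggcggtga
RPS27L, chr15:63157463-63157492, minus strand: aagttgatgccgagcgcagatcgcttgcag
RPL26, chr17:8383179-8383208, minus strand: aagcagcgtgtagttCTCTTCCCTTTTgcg
RPL26L1, chr5:172958714-172958743, plus strand: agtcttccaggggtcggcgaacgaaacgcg

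**Figure D4:**
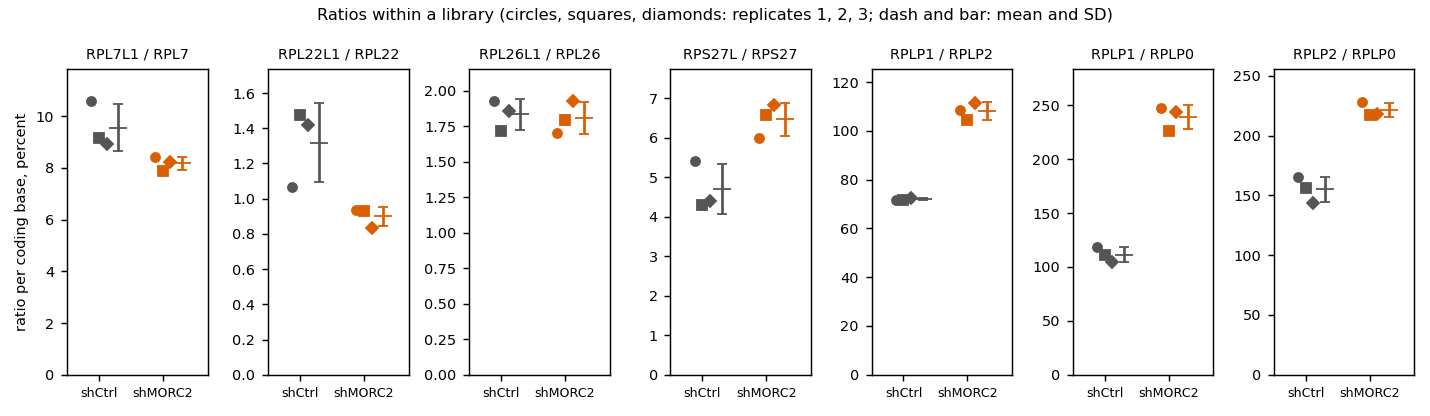
Ratios of 2 genes within each library, per coding base and in percent, for 4 paralogs over their parent genes and for the 3 pairs of stalk proteins. Circles, squares and diamonds are replicates 1, 2 and 3, and the dash with its bar is the mean with SD. Every axis starts at 0. The groups lie apart in each panel except that of RPL26L1 over RPL26.

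RPL5 and RPL11 have a further role outside the ribosome. With 5S ribosomal RNA they form a particle that binds MDM2 when ribosome assembly fails. RPL5 stood at 2545 ± 108 and 2307 ± 118 CPM (log2 fold change -0.14, SE 0.08, edgeR adjusted p 0.172) and RPL11 at 471 ± 19.5 and 501 ± 15.2 CPM (0.09, SE 0.07, edgeR adjusted p 0.340), and neither was called. With a block for the replicate number RPL5 was called lower (-0.14, edgeR adjusted p 0.0261). MDM2, the ligase they bind, fell from 26.2 ± 0.361 to 15.99 ± 0.890 CPM (SD, n = 3 each, log2 fold change -0.71, SE 0.08, edgeR adjusted p 3.23e-05).

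Loss of 1 copy of many of these genes causes Diamond-Blackfan anaemia, a failure of red cell production. Of 18 members known for it, 7 were called higher (among them RPS26, RPS29, RPL15, RPL26, RPL27 and RPL35A) and 2 lower (RPS10 and RPS28), with a median log2 fold change of 0.13. Over all tested members 32.5% were called higher and 14.5% lower, and over all genes tested 19.9% and 19.6%, so the 18 were near the other members. RPS19, the gene most often affected, stood at 393 ± 28.5 and 432 ± 17.0 CPM (log2 fold change 0.14, SE 0.08) and was not called, though with a block for the replicate number it was called higher (edgeR adjusted p 0.0363). The largest change of the 18 was that of RPL27.

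Several other properties were set beside the calls, which over all genes tested were 19.9% higher and 19.6% lower. The 47 members with the TOP-like run had 16 higher and 6 lower calls and a median log2 fold change of 0.09, and the 19 tested members with a window but without the run had 7 and 4 and a median of 0.02. Among other genes, 753 tested genes with such a run had 135 higher and 188 lower calls and a median of -0.04. The 10621 other tested genes of the promoter table without it had 2355 and 2328 and a median of -0.01. The 6 tested members with TATAAA in their window all had log2 fold changes below 0, and 3 of them were called lower. Of these 6, RPS3, RPL7A, RPLP0 and RPL3 have 729, 798, 951 and 1209 coding bases, and RPS28 and RPL22L1 have 207 and 366. Longer members had lower values as fitted, and motif and length were not told apart. Of the 5 members with CACGTG, 2 were called lower and the other 3 were not called. For CCGGAA the medians with and without it were 0.09 and 0.09. These are descriptions of small groups, and no difference between them was tested.

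Of the members, 24 carry snoRNA genes in their introns or exons, 47 snoRNA genes in all. These guide the modification of ribosomal RNA and are cut from the spliced introns. The 24 hosts had 7 higher and 2 lower calls and a median of 0.02, and the 59 tested members without a snoRNA gene 20 and 10 and a median of 0.13. The 29 members with antisense genes over their exons had 12 higher calls and 1 lower call, that of RPS28, and the 54 without had 15 and 11. The shares over all genes tested were 19.9% higher and 19.6% lower, and no difference between these groups was tested. Whether the counting used strand is not given in the sources used here.

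Of pseudogenes named after members there were 1014 in the table, 719 of them with counts. They took 0.188 ± 0.00241% of all counts in shCtrl and 0.229 ± 0.00586% in shMORC2 (SD, n = 3 each), without overlap. In 15 members the pseudogenes made up at least 5% of the summed counts. When each member was summed with its pseudogenes, 27 members were called higher and 11 lower by edgeR, and the calls of RPL32 and RPSA were the 2 that were lost.

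FAU and RPL36AL, which lie outside the naming pattern, had log2 fold changes above 0. FAU, a fusion of a ubiquitin-like domain with a 40S protein, went from 279 ± 12.3 to 319.5 ± 16.6 CPM (SD, n = 3 each, log2 fold change 0.20, SE 0.07) and was called at the edge of the threshold, with an edgeR adjusted p of 0.050. RPL36AL, a close copy of RPL36A, stood at 254 ± 23.6 and 295 ± 16.5 CPM (0.22, SE 0.08, edgeR adjusted p 0.0534, and 0.00405 with a block for the replicate number). All 3 shMORC2 values lay above the shCtrl values in both genes.

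The machinery that makes and uses ribosomes was set beside its proteins. Of 25 tested translation factors and other genes of TOP mRNAs, 4 were called higher and 14 lower, with a median log2 fold change of -0.25. Over all genes tested, 19.9% were called higher and 19.6% lower, and the difference of the list from these shares was not tested. Those called higher included RACK1, a scaffold protein bound to the 40S subunit (311 ± 13.9 to 435 ± 23.3 CPM, log2 fold change 0.49), and TPT1 (0.36). EIF3A and EIF4A2, factors of translation initiation, were lowest at -0.63 and -0.57. EIF3A fell from 2372 ± 76.8 to 1529 ± 102 CPM (SD, n = 3 each, SE 0.08, edgeR adjusted p 4.97e-05).

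Ribosome biogenesis factors had 11 higher and 38 lower calls among 98 tested genes, with a median of -0.16. The shares over all genes tested were 19.9% and 19.6%, and the difference from them was not tested. NMD3, the adaptor that exports the 60S subunit from the nucleus, fell from 69.97 ± 1.75 to 38.01 ± 0.971 CPM (SD, n = 3 each, log2 fold change -0.88, SE 0.07, edgeR adjusted p 1.91e-06), and NOC3L, a 60S assembly factor, stood at -0.69. NOP10 and NHP2, 2 short proteins of the box H/ACA particles that modify ribosomal RNA, stood highest at 0.93 and 0.41. With the coding length trend removed and a block for the replicate number the list had 17 higher and 45 lower calls and a median of -0.11. That fit called 27.3% of protein-coding genes higher and 27.7% lower.

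Chaperones that guard single ribosomal proteins before assembly had 2 higher and 2 lower calls among 9, which is near the 19.9% and 19.6% called over all genes tested. AAMP, the counterpart of a yeast chaperone of RPL10, rose from 241 ± 7.37 to 434 ± 44.3 CPM (log2 fold change 0.84), and TSR2, the chaperone of RPS26, stood at 0.21. PDCD2L, a relative of the RPS2 chaperone PDCD2, and GRWD1, the chaperone of RPL3, stood at -0.72 and -0.39. Both PDCD2 (-0.12) and RPL3 (-0.12) were not called.

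Regulators of ribosome production had 2 higher and 6 lower calls among 14, beside 19.9% and 19.6% over all genes tested. MYC fell from 417 ± 40.7 to 213 ± 14.7 CPM (SD, n = 3 each, log2 fold change -0.97, SE 0.09, edgeR adjusted p 3.47e-06). EIF4EBP1, a translation repressor that mTOR switches off, stood at -0.68, the transcription factors SP1 and YY1 at -0.46 and -0.25 and LARP1, which holds TOP mRNAs back, at -0.32. MTOR and its partner RPTOR stood at 0.44 and 0.27. Of the other genes of the list, RPS6KB1 (-0.13), EIF4EBP2 (-0.15), GABPA (0.15), TBP (-0.12) and TBPL1 (0.08), were not called. The medians of the biogenesis, translation and regulator lists thus lay below 0 as fitted, and that of the ribosomal protein genes above it. With the coding length trend removed and a block for the replicate number, the medians were -0.12 for the members and -0.11 for biogenesis. That of the translation list was then -0.24.

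**Figure D5:**
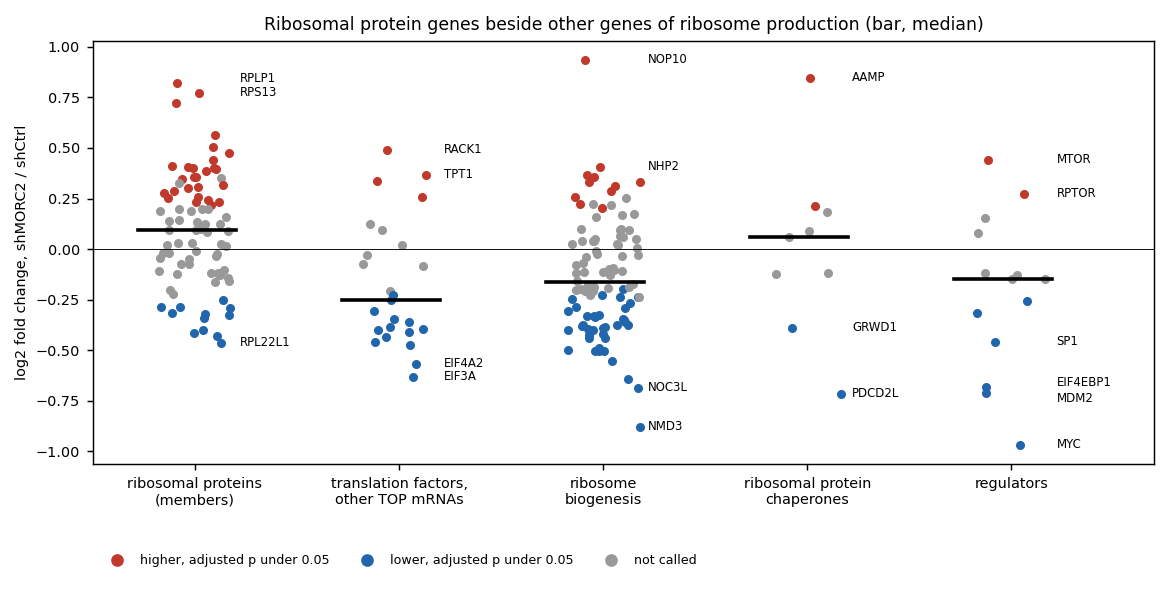
Log2 fold change of shMORC2 over shCtrl for the 83 tested ribosomal protein genes and 4 other lists of ribosome production, 1 point per gene (spread sideways at random for view), with colours for the edgeR call and black bars for the medians. As fitted, the ribosomal protein genes lie within -0.47 to 0.82 with a median of 0.09. Biogenesis factors and translation factors have medians of -0.16 and -0.25. With the coding length trend removed and a block for the replicate number, these medians are -0.12, -0.11 and -0.24 in the same order.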

How the data were processed

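RNA of 3 shCtrl and 3 shMORC2 libraries of SW480 cells was analysed. Reads were trimmed, aligned to GRCh38 and counted per gene by the authors, whose processing notes name Trimmomatic 0.36, STAR 2.5.3a and featureCounts (Subread 1.5.1) with no role or order. Strand setting, annotation release and the use of molecular identifiers in counting are not given in the sources used here. The deposited read counts went into edgeR 4.0.16, run in R 4.3.3 (filterByExpr, TMM, quasi-likelihood fit with group as the only term, Benjamini-Hochberg adjustment over 21005 genes), and an adjusted p under 0.05 was called. SE was the log2 fold change divided by the square root of F. CPM used TMM-scaled library sizes. The deposited RPKM values, which the authors scaled by summed exon length and library total, served the limma 3.58.1 alternatives on log2(RPKM + 1) and log2(RPKM + 0.1) for a mean RPKM of at least 1, and to rank levels. Columns holding the authors' own comparisons of splicing (p-values and differences) were not used, and 0 columns belonged to samples outside the series.

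Correlations of log2 CPM were 0.989 to 0.992 within groups and 0.968 to 0.975 between them. Same-numbered libraries shared part of their deviation from the group means (0.215, 0.111 and 0.102), and the numbers were taken to pair libraries from these values alone. Other alternatives were DESeq2 1.42.0, other scalings and filters, members summed with pseudogenes, length trends removed (loess, span 0.3), and each library left out. The fits with canonical transcript length and coding length were added after seeing the data. Members, lists and tests were chosen with earlier results of these data known. Named by rule were MORC2, the paralogs and parents, 7 fixed genes, the 8 highest and 8 lowest called members with a mean of at least 100 counts, the 3 highest and 3 lowest by RPKM, members in the splicing table, the regulators, the genes outside the pattern and the 2 highest and 2 lowest called genes of each other list. Members named otherwise were chosen after their values were seen. Some genes of the members and lists count in the totals but are not reported here by name. The scripts were tested on simulated data.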

Additional observations from a re-analysis of the deposited data

How the results depend on the processing

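In settings that kept all libraries and the threshold, and removed no length trend, the numbers of members called stayed within 1.5 times their values, as did those of the translation and regulator lists. The numbers called at an adjusted p under 0.01 were 15 higher and 5 lower, and with a log2 change of at least 0.5 as well they were 5 and 0. With a block for the replicate number (pairing), 35 were called higher and 18 lower. The block and the exon length trend gave 21 lower, a 40S median of 0.000196, 17 biogenesis genes higher, RPL17 at -0.0296 and RPS3 at 0.000196. The block and the canonical transcript length trend gave 34 lower, medians of -0.0711 for the members, -0.123 for 40S and -0.0338 for 60S, and RPL26L1 at -0.00123, RPL11 at -0.0593, RPL17 at -0.191 and FAU at -0.0218. The block and the coding length trend gave 10 higher and 40 lower, medians of -0.122, -0.182 and -0.0841, 17 biogenesis genes and 1 chaperone higher, and RPL26L1 at -0.0347, RPL39L at -0.0553, RPL22 at -0.171, RPL26 at -0.0133, RPLP2 at -0.0619, RPL11 at -0.0795, RPL17 at -0.143, TBPL1 at -0.0814, FAU at -0.0584 and RPL36AL at -0.0961. Both limma fits gave 7 biogenesis genes and 1 chaperone higher, the chaperone count was also 1 without TMM, and RPL13A was 0.0068 when summed with pseudogenes. The cause of these moves was not tested beyond the setting itself.

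Leaving out 1 library gave 15 to 33 members higher and 5 to 15 lower, 7 to 15 biogenesis genes higher and 24 to 42 lower, 1 to 2 chaperones higher and a 40S median of -0.0668 to 0.0415. Without shCtrl replicate 2 or 3, biogenesis genes called higher numbered 7, and without shMORC2 replicate 2 those called lower numbered 24. RPL13A ran from -0.103 to 0.0359, RPS27 from -0.179 to 0.0415, RPL17 from -0.0332 to 0.0674, RPS3 from -0.112 to 0.0086 and RPL39L from -0.109 to 1.37, and the log2 ratio difference from -0.0685 to 0.0193 for RPL26L1 over RPL26 and from -0.619 to 0.774 for RPL39L over RPL39. RPL22L1 kept its direction in 19 alternatives and its call in 14. Of the values of named genes and pairs, 1100 kept direction and side of the threshold, 62 lost the call, 41 gained it and 27 turned in sign. Depth limits RPL3L, RPL39L and RPL10L most. A member that was not called is not thereby shown to be unchanged.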

Other observations

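The deposited rMATS table of splicing, whose 2 groups of 3 libraries carry no names, lists 6 events in 5 members, with the inclusion levels of each library as the authors computed them. Which group was shMORC2 is not known from it, so no direction is given. In RPL19, the inclusion levels of exons 3 and 4 as mutually exclusive exons were 0.333, 0.341 and 0.332 in group 1 and 0.527, 0.530 and 0.537 in group 2. For exons 4 and 5 of RPS3 they were 0.175, 0.184 and 0.179 against 0.313, 0.318 and 0.321, and for exons 5 and 6 of RPL13A 0.206, 0.224 and 0.216 against 0.321, 0.334 and 0.349. For exons 3 and 4 of RPL10 they were 0.323, 0.223 and 0.267 against 0.144, 0.097 and 0.127. In each of these 4 events both exons belong to the canonical transcript of GENCODE v44, which joins them. RPL17 has a skipped exon at 0.225, 0.246 and 0.268 against 0.329, 0.548 and 0.341, from 50 to 92 reads per library, and a retained intron at 0.888, 0.769 and 0.780 against 0.612, 0.601 and 0.598.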
